A study of Eucalyptus camaldulensis with 12 samples.

Results

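The 27 transcripts described here were those of the E. camaldulensis leaf whose read share was lower at the end of the experiment than before it in watered and in water-stressed seedlings alike. They were chosen from 41547 transcripts predicted on the E. grandis draft genome. Library counts were converted to CPM, the reads of a transcript divided by the reads of its library on these transcripts and multiplied by 1000000. A transcript was kept where its lowest CPM over the 6 libraries taken before treatment was at least 20 and at least 3 times its highest CPM over the 6 libraries taken at the end. In all, 6102 transcripts met the 20 CPM floor, and 0.442% of those met the ratio as well. The reversed rule, by which the 6 end libraries are higher, gave 11 transcripts. Without the Petford C1 library 52 transcripts would be chosen in place of 27, and 44 with TMM-scaled library totals, the 27 among them in both cases. The fall itself is therefore how these transcripts were chosen and is given below as a description, with no test.

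The mRNA-seq libraries were prepared with total RNA from leaves of seedlings of 3 populations, Katherine (dry tropics), Mt Isa (semi-arid tropics) and Petford (humid tropics), grown in pots in a glasshouse. Each library is a bulk of the seedlings of 1 population, so the 3 libraries of a group are 3 populations and single seedlings cannot be told apart. S1 is the group of 10 seedlings per population after 2 months at 30% of field capacity, and C1 is the group of 5 seedlings per population kept at field capacity over the same time. S0 and C0 are the same seedlings as S1 and C1 before the stress was imposed, when all were watered. Plant age and season moved on between the first and the second sampling in every seedling, so in the watered seedlings time, season and leaf age cannot be told apart. For 2 libraries, C1 and S0 of Mt Isa, the source field disagrees with the title and the sample group, and the title and sample group were used. Totals on the 41547 transcripts ran between 2228850 and 6614000 reads in S1, 1679845 and 2845874 in C1, 1650330 and 5866208 in S0, and 1817461 and 3131368 in C0. No sequencing batch is given in the labels.

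Light-harvesting proteins bind chlorophyll in the thylakoid membrane of the chloroplast and pass the absorbed energy to the photosystems. LHCB1 and LHCB2 proteins, encoded by small families of nuclear genes, make up most of the mobile antenna of photosystem II, and their transcripts are known to be among the most abundant of a green leaf. Transcripts of these genes are known in plants to respond to light, to the clock, to leaf age and to drought. In bulk leaf RNA, fewer cells of a type and less RNA per cell cannot be told apart.

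Only 4 of the 27 transcripts could be given a gene identifier. Of those 4, 3 lay at light-harvesting genes, 4b among them only by its position inside 4a. The share of light-harvesting transcripts among all named transcripts was not taken, so nothing is read from this count. The remaining 23 are given by their position on the E. grandis scaffolds, and by a short label made of the scaffold number and a letter. Transcript 4a (scaffold_4:5281980-5286647) is Eucgr.D00321, which matches Arabidopsis LHB1B1 (LHCB1.4). Transcript 4b (scaffold_4:5285640-5285752) lies inside 4a, was given the same gene, and cannot be counted as a separate case. Transcript 1a (scaffold_1:16273574-16275998) is a single predicted transcript that covers Eucgr.A01046 and Eucgr.A01047, both matching LHCB2. Transcript 5a (scaffold_5:2831419-2834219) is Eucgr.E00302, a pentatricopeptide repeat protein, of a family that binds and processes RNA in chloroplasts and mitochondria. For the light-harvesting transcripts, how the counting treated reads that match several near-identical gene copies is not given in the sources used here, so their shares are uncertain by that amount.

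Together the 27 transcripts took 0.198% ± 0.028 of the reads in S1, 0.379% ± 0.029 in C1, 2.42% ± 0.42 in S0 and 2.20% ± 0.053 in C0 (SD, n = 3 libraries each). Most of these reads lay on 3 transcripts, 9c, 1a and 4a, which held 80.6% of the reads of the 27 before treatment. The ratio used by the rule, the lowest CPM before over the highest at the end, ran between 3.04 and 9.24 with a median of 4.0, and 13 transcripts had a ratio of at least 4.

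**Figure D1:**
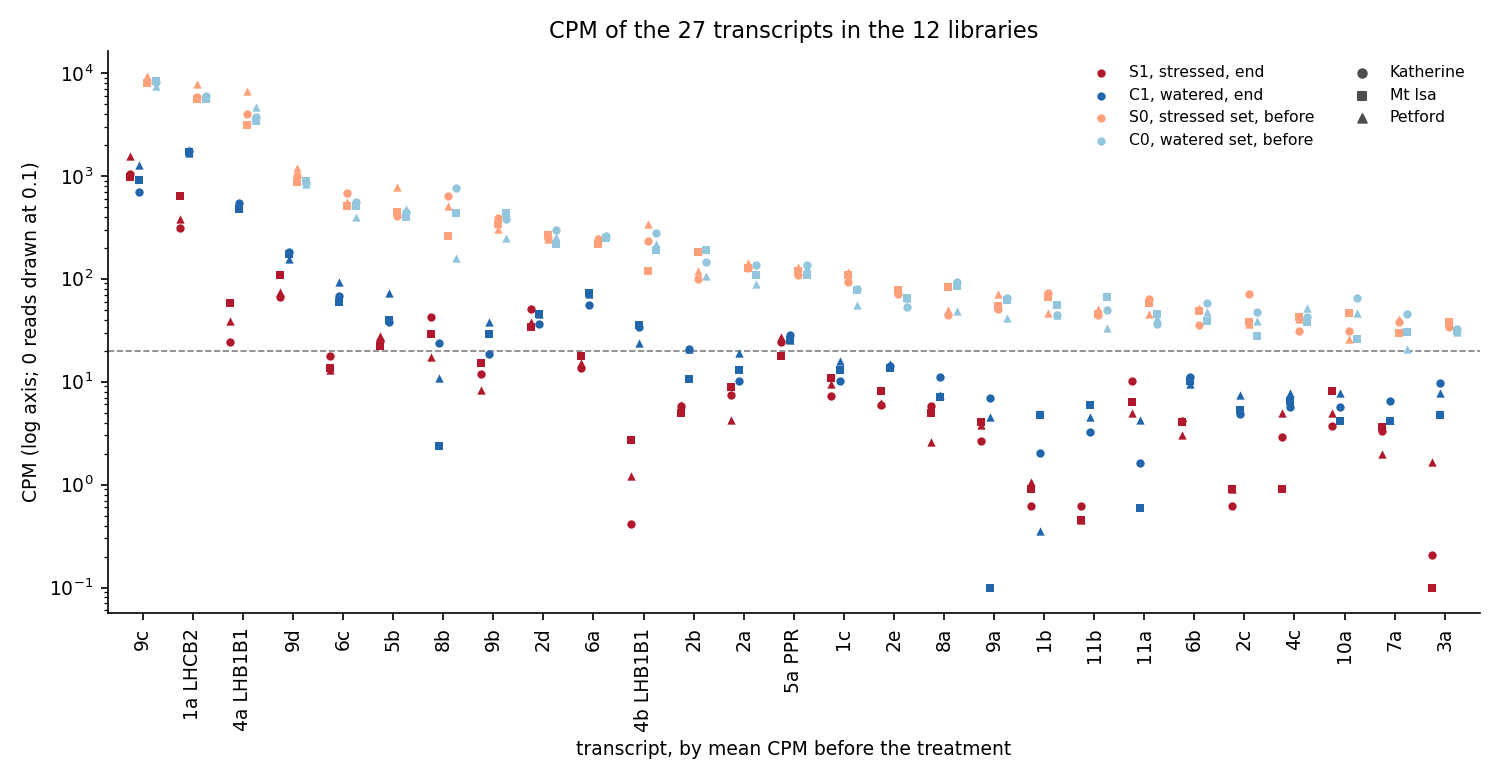
CPM of each of the 27 transcripts (horizontal axis, ordered by mean CPM before treatment) in each of the 12 libraries, on a log axis; colour gives the group and shape the population, and the dashed line is the 20 CPM floor. The S0 and C0 points of each transcript lie at least 3.04 times above all of its S1 and C1 points, as the rule requires, and the S1 points of 4a, 4b and 1a lie below the C1 points.

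The LHB1B1 transcript 4a had 24.2, 57.9 and 38.7 CPM in S1 and 540.4, 479.8 and 497 CPM in C1, in the order Katherine, Mt Isa and Petford. Before treatment it had 4000.1, 3121 and 6713 CPM in S0 and 3706, 3420 and 4705 CPM in C0. All S1 libraries were thus below all C1 libraries, and S0 and C0 overlapped. Within the populations, 4a was 165-fold, 53.9-fold and 173-fold lower in S1 than in S0, and 6.86-fold, 7.13-fold and 9.48-fold lower in C1 than in C0. Its nested partner 4b, a stretch of 113 bases, had 2, 6 and 8 reads in S1 and 83, 60 and 68 reads in C1, against 671, 197 and 2010 reads in S0 and 525, 599 and 397 reads in C0.

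Around 4a and 4b, another pair of predicted transcripts overlap or adjoin the same locus. The longer, scaffold_4:5282319-5290880, missed the threshold with a ratio of 2.87, and the other, scaffold_4:5289649-5290880, had a ratio of 2.05. Their lowest CPM before treatment and highest CPM at the end were 6937 and 2414 for the longer, and 3852 and 1881 for the other. The locus as a whole was lower at the end, and it enters the 27 through the part covered by 4a and 4b.

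The LHCB2 transcript 1a had 308, 641 and 376 CPM in S1 and 1736, 1708 and 1667 CPM in C1, in the same order of populations. It had 5794, 5512 and 7736 CPM in S0 and 5900.1, 5544 and 5808 CPM in C0. The C1 libraries averaged 1704 ± 34.9 CPM (SD, n = 3), and all S1 libraries were lower. Transcript 1a was 18.8-fold, 8.60-fold and 20.6-fold lower in S1 than in S0. In the watered seedlings it was 3.40-fold, 3.25-fold and 3.48-fold lower in C1 than in C0, close to the threshold of the rule.

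The transcript with the largest read share of the 27, 9c (scaffold_9:27872807-27876951), has no gene name in the tables used. It had 1048, 981 and 1557 CPM in S1 and 689, 909 and 1286 CPM in C1, against 8238, 8044 and 9257 CPM in S0 and 8069, 8418 and 7445 CPM in C0. Its S1 and C1 libraries overlapped, with the higher mean in S1, whereas the light-harvesting transcripts had the lower mean in S1. It was 7.86-fold, 8.20-fold and 5.95-fold lower in S1 than in S0 and 11.7-fold, 9.26-fold and 5.79-fold lower in C1 than in C0.

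The pentatricopeptide repeat transcript 5a had overlapping levels in stressed and watered leaves, with 24.0, 17.9 and 27.2 CPM in S1 and 28.6, 25.6 and 25.3 CPM in C1, against 109, 118 and 131 CPM in S0 and 136, 108 and 128 CPM in C0. It was 4.52-fold to 6.55-fold lower in S1 than in S0 and 4.22-fold to 5.05-fold lower in C1 than in C0 over the populations. Transcript 2d (scaffold_2:43903633-43907138) behaved likewise, with means of 40.9 CPM in S1 and 42.2 CPM in C1 and of 253 CPM in S0 and 258 CPM in C0.

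Among the unnamed transcripts, 9d, 6c, 5b, 9b and 8b had the next largest read shares before treatment. Transcript 9d (scaffold_9:37924897-37926160) averaged 83.4 CPM in S1 and 171 CPM in C1, against 1017 CPM in S0 and 859 CPM in C0. Transcript 6c (scaffold_6:45618450-45623906) averaged 14.7 CPM in S1 and 73.3 CPM in C1, against 582 CPM in S0 and 487 CPM in C0. Transcript 5b (scaffold_5:12132933-12134084) averaged 24.9 CPM in S1 and 50.4 CPM in C1, against 545.5 CPM in S0 and 440.3 CPM in C0. In these 3 transcripts no S1 library reached the lowest C1 library.

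Transcript 1b (scaffold_1:26467868-26469229) had the largest rule ratio, 9.24. It had 3, 2 and 7 reads in S1 and 5, 8 and 1 reads in C1, against 209, 109 and 272 reads in S0 and 83, 173 and 80 reads in C0. The S1 and C1 libraries overlapped, and the log2 fold change of S1 over C1 was -1.15 ± 0.83 (SE, adjusted p = 0.326). The ratio was 6.69 for 9b (scaffold_9:22609532-22613112), 6.02 for 9a (scaffold_9:22569868-22573719), 5.78 for 4a, 5.64 for 11b (scaffold_11:44278817-44279866) and 5.43 for 5b.

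At the threshold, the members just inside were 6a (scaffold_6:4940137-4944212, ratio 3.04), 3a (scaffold_3:44992482-44995662, 3.09), 1a (3.17), 7a (scaffold_7:41598116-41600544, 3.20) and 6b (scaffold_6:43594344-43595520, 3.22). Just outside, with the floor met, were scaffold_1:30213054-30217162 (2.99), scaffold_3:77516609-77518657 (2.98), scaffold_6:36708757-36713308 (2.96), scaffold_9:7169665-7175447 (2.95) and scaffold_6:43323377-43326072 (2.93). The ratios run through the threshold without a gap.

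The 27 lie on 11 scaffolds and spanned between 113 and 5457 bases of genome, introns included, with a median of 2801, against 922 over all 41547 transcripts. The 27 also had to meet the 20 CPM floor, as 6102 transcripts did, and the median span of those is not given. The difference in span is therefore not read as a trait of the fall. Transcripts 2a (scaffold_2:5453765-5457736) and 2b (scaffold_2:5470530-5473889) are 12793 bases apart, with means of 6.9 and 5.5 CPM in S1, 14.1 and 17.4 CPM in C1, 132 and 134 CPM in S0, and 111 and 148 CPM in C0. The transcript between them, scaffold_2:5461108-5463699, had a ratio of 0.293 and did not follow them. Transcripts 9a and 9b are 35812 bases apart, and the transcripts predicted between them had ratios of 0.765 or less. Apart from the nested 4b, each of the others is at least 2022929 bases from the next of the 27 on its scaffold.

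At the median of the 27 the fall was larger in stressed than in watered seedlings, and by the test given below it differed in 10 of 27. The median log2 of mean CPM was -3.93 for S1 over S0 (range -7.33 to -2.37) and -2.88 for C1 over C0 (range -5.20 to -1.76). Across the 27 transcripts the sizes of both falls had a Pearson's r of 0.151, a description over points that share the same 12 libraries. In 18 of 27 transcripts the fall was larger in the stressed than in the watered seedlings of every population, with 20 in Katherine, 22 in Mt Isa and 23 in Petford. No count over all transcripts stands beside these. They are on library totals, where the median log2 over 30887 transcripts was 0.175 for S1 against S0 and 0.332 for C1 against C0. That scale leans slightly towards a larger fall in stressed seedlings. Because the fall chose the transcripts, the share of all transcripts called lower (adjusted p under 0.01, edgeR's quasi-likelihood test) stands here for reference and nothing is read from it for the 27: 10.3% of 40244 in S1 against S0 and 3.90% of 36197 in C1 against C0.

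**Figure D2:**
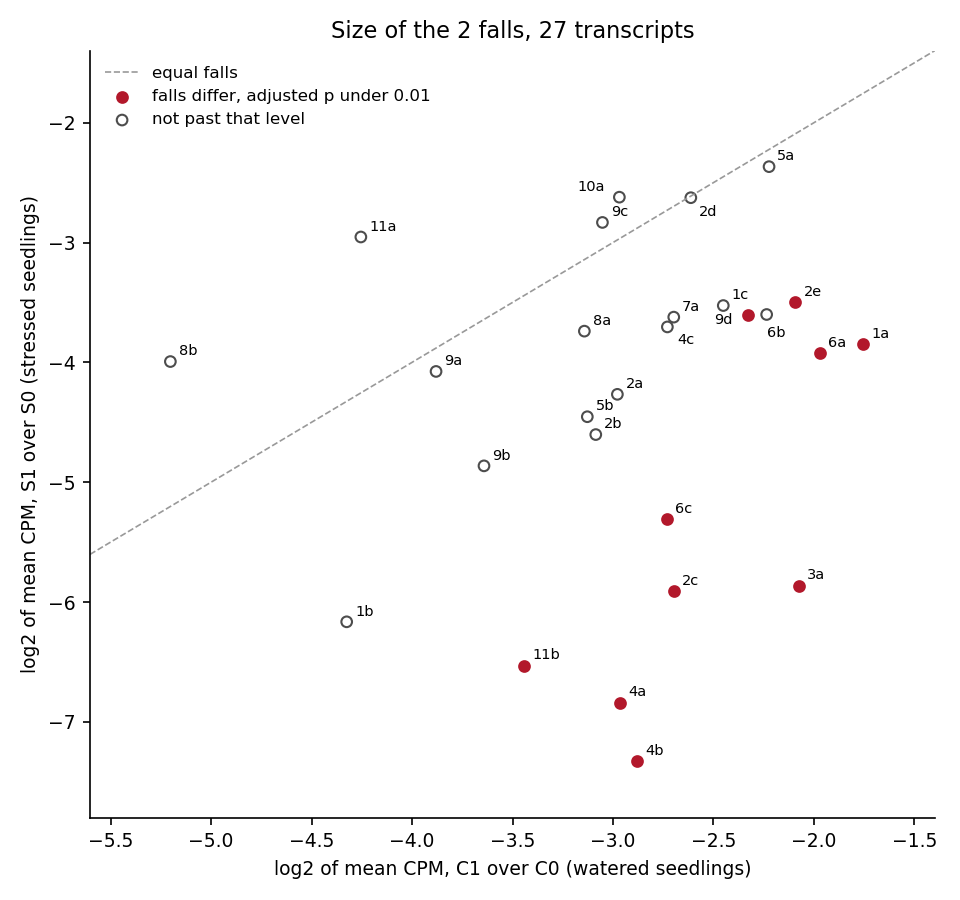
Log2 ratio of mean CPM, S1 over S0 in stressed seedlings (vertical axis), against C1 over C0 in watered seedlings (horizontal axis), for the 27 transcripts; the dashed line marks equal falls and filled points have falls that differ at an adjusted p under 0.01. The 10 filled points lie below the line, with 4a at -6.84 and 4b at -7.33 on the vertical axis, and 8b and 11a lie above it.

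The difference of the falls, (S1 - S0) - (C1 - C0), was tested over the 12 libraries. The rule asks for both falls to be at least 3-fold and does not ask which is larger. It does use the same libraries as the test. The fall was larger in stressed seedlings in 10 of 27 transcripts and larger in watered seedlings in none (edgeR's quasi-likelihood test, Benjamini-Hochberg adjusted p under 0.01), where 6.68% and 4.04% of all 43146 transcripts were called in these directions. The median log2 difference was -1.31 over the 27 and -0.04 over all transcripts tested. At an unadjusted p under 0.05 the counts were 18 of 27 and 12391 of 43146. The rule sets a ceiling on the highest end library, so a transcript that was held up in S1 or C1 alone could not be chosen. The counts in the 27 and the shares of all transcripts are therefore not a like-for-like comparison.

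The difference was -3.91 ± 0.44 (SE) for the LHB1B1 transcript 4a (adjusted p = 4.13e-06), -4.64 ± 0.62 for the nested 4b (2.94e-05) and -2.08 ± 0.32 for the LHCB2 transcript 1a (0.000136), each with n = 3 libraries per group. Of the unnamed transcripts, 6c had -2.51 ± 0.34 (adjusted p = 3.54e-05) and 6a had -1.91 ± 0.26 (4.17e-05). The other 5 were 2c (scaffold_2:17538714-17540120), 3a, 11b, 2e (scaffold_2:57041926-57043785) and 9d, between -3.25 and -1.26, the last being 9d with an adjusted p of 0.00384. The seedlings of each population were the same before and at the end, and this pairing was not modelled by itself. With population as a block, which joins the stressed and the watered seedlings of a population, 14 transcripts were called. They were the same 10 and 2a, 2b, 5b and 6b. The pentatricopeptide repeat transcript 5a had -0.05 ± 0.29 (adjusted p = 0.949).

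At the end of the experiment, 11 of the 27 transcripts were lower in S1 than in C1 and none was higher (adjusted p under 0.01, edgeR's quasi-likelihood test), while 12.5% of the 40440 transcripts tested were called lower and 9.81% higher. The ceiling on the end libraries applies here too, so the shares of all transcripts are a reference and not a like-for-like comparison. The median log2 fold change was -0.97 over the 27, with a range of -4.48 to 1.73, and -0.04 over all transcripts tested. The tests used TMM scaling, which places S1 against C1 0.24 higher on the log2 scale than library totals do at the median of all transcripts, S1 against S0 0.18 lower and C1 against C0 0.27 lower. In mean CPM on library totals 24 of 27 were lower in S1 than in C1, and after TMM scaling 23 were, the exception being 2d, which lay near 0 on both scales. Of the 11, 9 were also among the 10 above, which use the same S1 and C1 libraries. The S1 and C1 libraries did not overlap in 19 of 27 transcripts, and in 18 of these all S1 libraries were below all C1 libraries, compared with 46.4% and 26.4% of 38811 transcripts.

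**Figure D3:**
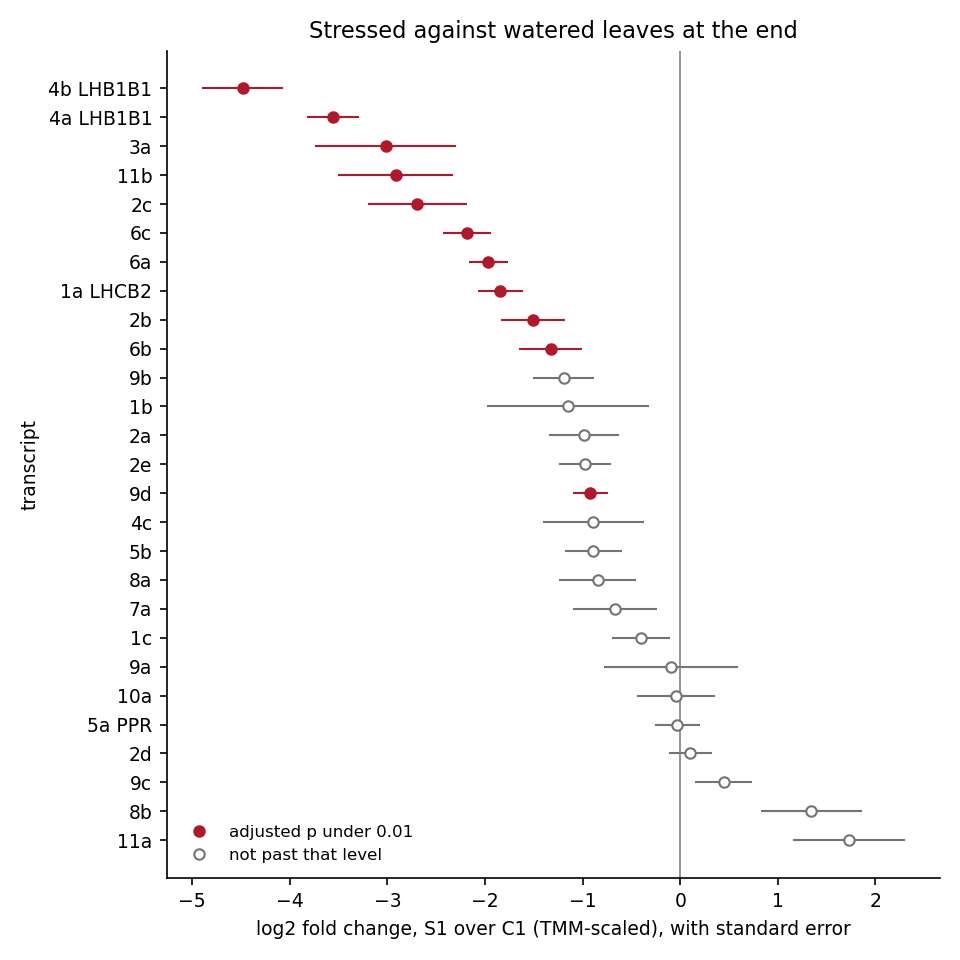
Log2 fold change of S1 over C1 with its standard error (horizontal axis) for each of the 27 transcripts, from the lowest at the top; filled points have an adjusted p under 0.01. The 11 filled points lie between -4.48 (4b) and -0.92 (9d), and 11a and 8b lie on the other side of 0 without passing the test.

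The light-harvesting transcripts fell in S1 relative to C1. The log2 fold change was -3.55 ± 0.26 (SE) for the LHB1B1 transcript 4a (adjusted p = 3.49e-06), -4.48 ± 0.42 for the nested 4b (1.47e-05) and -1.84 ± 0.23 for the LHCB2 transcript 1a (0.000122), with n = 3 libraries per group. The transcripts 6a and 6c also fell. Transcript 6a had 13.5, 17.9 and 15.1 CPM in S1 and 55.1, 72.0 and 70.6 CPM in C1 (log2 fold change -1.97 ± 0.20, adjusted p = 2.71e-05), and 6c had 17.7, 13.5 and 13 CPM in S1 and 68.6, 58.9 and 92.4 CPM in C1 (-2.18 ± 0.24, 5.42e-05). These 5 transcripts were called in S1 against C1 whichever library was left out, and the other 6 of the 11 (2b, 2c, 3a, 6b, 9d and 11b) each lost the call without at least 1 library. The count of 11 was 5 without Katherine S1, 6 without Petford C1 and 7 without Petford S1.

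The largest falls among the unnamed transcripts rested on few reads. Transcript 3a had 1, 0 and 11 reads in S1 and 24, 8 and 22 reads in C1, and a log2 fold change of -3.02 ± 0.72 (adjusted p = 0.00789). Transcript 11b had 3, 1 and 3 reads in S1 and 8, 10 and 13 reads in C1, with -2.91 ± 0.59 (adjusted p = 0.00292). Transcript 2c had 3, 2 and 6 reads in S1 and 12, 9 and 21 reads in C1, with -2.69 ± 0.51 (adjusted p = 0.00195). For all 3, S0 and C0 libraries held between 55 and 297 reads, and the groups S1 and C1 did not overlap in CPM.

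The called transcripts 2b, 6b and 9d had smaller differences. Transcript 9d had 66.5, 109 and 75.0 CPM in S1 and 181, 176 and 156 CPM in C1 (log2 fold change -0.92 ± 0.18, adjusted p = 0.00218). Transcript 2b averaged 5.5 CPM in S1 and 17.4 CPM in C1 (-1.51 ± 0.33, adjusted p = 0.00430), and 6b averaged 3.7 CPM in S1 and 10.2 CPM in C1 (-1.33 ± 0.32, adjusted p = 0.00821).

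Of the 16 transcripts that did not pass the test, 12 had a log2 fold change below 0 and 4 above it. Transcript 11a (scaffold_11:37730547-37732741) had 50, 14 and 33 reads in S1 and 4, 1 and 12 reads in C1, and was the only transcript with all S1 libraries above all C1 libraries in CPM. Its log2 fold change was 1.73 ± 0.57 (adjusted p = 0.0367). Transcript 8b (scaffold_8:36224649-36227231) had 42.5, 29.2 and 17.4 CPM in S1 and 23.7, 2.38 and 10.9 CPM in C1, with overlapping groups, the higher level in S1 in each population and a log2 fold change of 1.34 ± 0.52 (adjusted p = 0.0682). For 9c the log2 fold change was 0.45 ± 0.29 (adjusted p = 0.275). A p that misses the threshold does not show that these transcripts were equal in stressed and watered leaves.

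Among the 12 below 0, 9b had -1.19 ± 0.31 (adjusted p = 0.0124), 2e had -0.97 ± 0.27 (0.0156), 5b had -0.89 ± 0.29 (0.0355) and 2a had -0.99 ± 0.36 (0.0550). Nearest to 0 were 5a at -0.03 ± 0.23, 10a (scaffold_10:22374432-22378012) at -0.04 ± 0.40 and 9a at -0.10 ± 0.69, and 2d lay just above it at 0.11 ± 0.22. With 1c (scaffold_1:37842360-37843322), 4c (scaffold_4:17642723-17647505), 7a, 8a (scaffold_8:7513446-7516307) and 1b between -1.15 and -0.40, all 27 are accounted for.

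Before treatment, none of the 27 was called in S0 against C0, where 0.191% of 36048 transcripts were called (69 transcripts), and the smallest adjusted p was 0.339 for 1c. At an unadjusted p under 0.05 the counts were 5 of 27, all 5 higher in S0, and 2253 of 36048. The median log2 fold change of the 27 was 0.26 (range -0.28 to 0.73), against 0.03 over all transcripts tested. Of the 27, 4 were below 0. All S0 libraries were above all C0 libraries in 4 transcripts and below them in 1. This lean towards S0 enters the difference of the falls. Transcript 2e, called there and not in S1 against C1, had a log2 fold change of 0.48 in S0 against C0. The exact test of edgeR and the Wald test of DESeq2 also called none of the 27.

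Between the populations none of the 27 differed at an adjusted p under 0.01 (edgeR's quasi-likelihood test over 12 libraries with group as a term), where 1.18% of 43146 transcripts did. At an unadjusted p under 0.05 the counts were 7 of 27 and 5338 of 43146. Libraries of the same seedlings before and at the end entered this fit as if they were separate seedlings. Its p-values carry that limit. Transcripts 5b and 8b had the smallest adjusted p, 0.0189 and 0.0212. Transcript 5b had 409, 448 and 779.5 CPM in S0 and 444, 399 and 479 CPM in C0, in the order Katherine, Mt Isa and Petford, with Petford highest in both sets. Transcript 8b had 641, 263 and 513 CPM in S0 and 769, 431 and 161 CPM in C0, with Katherine highest in both sets and the order of Mt Isa and Petford differing between the sets. Averaged over S0 and C0, 8b had 705 CPM in Katherine, 347 CPM in Mt Isa and 337 CPM in Petford.

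The wider set of photosynthesis transcripts was lower at the end in both sets of seedlings, and almost all of it fell short of the 3-fold rule. The lists were keyword lists over the names in the study's own tables. Those tables hold transcripts selected between C1 and S1, and genes with polymorphisms selected for differing allelic expression between S0 and S1, on these libraries. By polymorphism position 20 of the nuclear photosystem and light-harvesting transcripts were named, and 3 by coordinates. The paper describes such polymorphisms as generally biased towards genes with high coverage. The directions of the lists are therefore not independent evidence, and values over all transcripts are a reference only. Of 23 nuclear transcripts for photosystem and light-harvesting proteins, 21 had a ratio of at least 1, 7 of at least 2 and 2 of at least 3, with a median of 1.86. Among the 6102 transcripts that met the floor, 14.1% had a ratio of at least 1 and 2.16% of at least 2, with a median of 0.491. The 2 above 3 are 4a and 1a.

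Leaving out 4a and 1a, 19 of the remaining 21 photosystem and light-harvesting transcripts fell in S1 relative to S0 and 2 rose, with a median log2 fold change of -2.26 (edgeR's quasi-likelihood test, adjusted p under 0.01, as for the lists that follow). In C1 relative to C0, 19 of 21 fell and none rose, with a median of -1.51. Over all transcripts tested, 10.3% were called lower and 8.85% higher in S1 against S0, with a median of 0.02, and 3.90% lower and 2.35% higher in C1 against C0, with a median of 0.05. The oxygen-evolving protein PSBP-1 (Eucgr.A02039) had a ratio of 2.25, the photosystem I subunit PSAO (Eucgr.B03824) 2.27 and the antenna protein LHCB3 (Eucgr.F01077) 1.63. The other transcript matching LHB1B1, Eucgr.E02381, had a ratio of 1.44, against 5.78 for 4a. Eucgr.E02381 fell by 1.92 on the log2 scale in S1 relative to S0 and by 1.15 in C1 relative to C0. It averaged 15527 CPM in S0 and 4959 CPM in S1, where 4a averaged 4611 and 40.3 CPM. In S1 against C1, Eucgr.E02381 did not pass the test (log2 fold change -0.63, adjusted p = 0.0304). The fall of 4a therefore does not stand for all transcripts matching LHB1B1.

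The 2 that rose in S1 relative to S0 were ELIP1 (Eucgr.B01896), an early light-induced protein that protects the photosystems under excess light, and PSBR (Eucgr.F01447), a small subunit of photosystem II. Their log2 fold changes were 3.18 for ELIP1 and 2.51 for PSBR in S1 against S0. In C1 against C0 they were 0.71 for ELIP1 and -0.01 for PSBR, neither past the test. Of the 23 nuclear transcripts, 4a and 1a included, 9 were lower and 2 higher in S1 than in C1, with a median of -0.59.

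**Figure D4:**
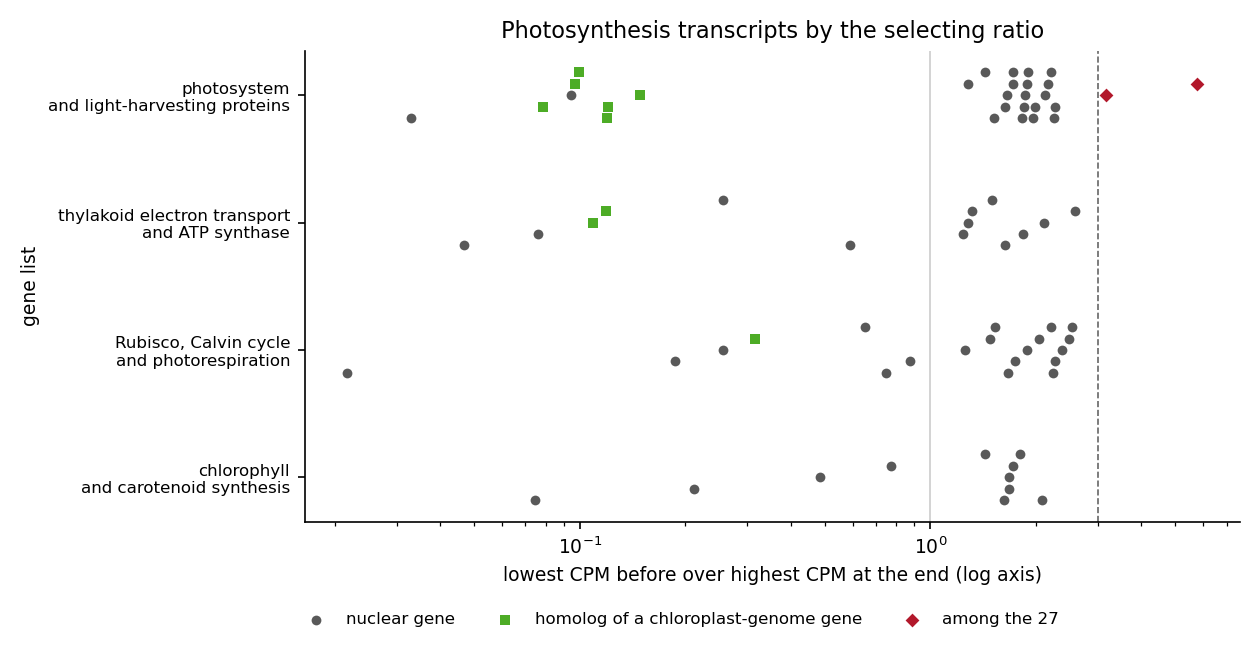
Ratio of the lowest CPM before treatment to the highest CPM at the end (horizontal log axis; dashed line at the threshold of 3, solid line at 1) for the named transcripts of 4 photosynthesis lists with a ratio. Most nuclear transcripts lie between 1 and 3, 4a (5.78) and 1a (3.17) lie beyond, and the homologs of chloroplast-genome genes lie at 0.317 or less.

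The other photosynthesis lists held none of the 27. Of 12 transcripts for thylakoid electron transport and ATP synthase, 10 fell and none rose in S1 relative to S0, and 10 fell and 1 rose in C1 relative to C0. Drawn by keyword, the list also holds the glutamate synthase GLU1 (Eucgr.A02249), the ferredoxin/thioredoxin reductase subunit FTRA1 (Eucgr.J00323) and the peptidyl-prolyl isomerase TLP38 (Eucgr.F01089). These are among those that fell in S1 relative to S0. PETC (Eucgr.A01769) is counted in the photosystem list as well. The gamma subunit of the chloroplast ATP synthase, ATPC1 (Eucgr.E04053), came nearest to the rule with a ratio of 2.58. Of 21 transcripts for Rubisco, the Calvin cycle and photorespiration, 16 fell and 4 rose in S1 relative to S0, and 13 fell and 2 rose in C1 relative to C0. Among the 4 that rose in S1 are 2 predicted transcripts of MAB1 (Eucgr.H03385), a subunit of the mitochondrial pyruvate dehydrogenase, which entered the list through the word transketolase in its name. The transcripts of Rubisco activase RCA had ratios of 2.53 (Eucgr.J02030), 1.53 (Eucgr.J01234) and 0.749 (Eucgr.B02310). The last did not pass the test in C1 against C0. Phosphoribulokinase PRK (Eucgr.E01261) had a ratio of 2.25. Of 11 transcripts for chlorophyll and carotenoid synthesis, 8 fell and 1 rose in S1 relative to S0, and 7 fell and 1 rose in C1 relative to C0. The 1 that rose in S1 is Eucgr.A02022 (PDS1, HPD), listed under the name phytoene desaturation 1. Whether it encodes an enzyme of pigment synthesis itself was not checked.

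The 9 homologs of chloroplast-genome genes on these lists, among them PSBA, PSBB, PSAB and RBCL, had ratios of 0.317 or less, so that the highest end library was above the lowest library before treatment. The 6 in the photosystem list ranged widely within groups, with summed levels between 77.2 and 1305 CPM in S1, 67.4 and 214 CPM in C1, 162 and 2909 CPM in S0, and 251 and 424 CPM in C0. Of these 6, none was called in S1 against S0 (median log2 fold change -1.14), while 3 fell and none rose in C1 relative to C0 (median -2.13), and 4 were higher and none lower in S1 than in C1 (median 3.63). The RBCL homolog, Eucgr.B03944, fell in S1 relative to S0 and to C1 and did not pass the test in C1 against C0.

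Markers of cell types were read beside these results, each list summed without the 27. The markers were drawn from the same named transcripts as the photosynthesis lists, selected between C1 and S1 or between S0 and S1 on these libraries. Their directions are therefore not independent evidence either. The 9 mesophyll markers, which are photosynthesis genes, summed to between 12925 and 13553 CPM in S1 and 23676 and 36246 CPM in C1, against 55337 and 88745 CPM in S0 and 61024 and 72262 CPM in C0. The 14 epidermis and cuticle markers summed to between 6876 and 10999 CPM in S1 and 6833 and 9568 CPM in C1, against 3268 and 3581 CPM in S0 and 2741 and 3578 CPM in C0. The summed level of the epidermis list was higher at the end in both sets of seedlings and that of the mesophyll list lower. By single markers, 9 of 9 mesophyll markers fell in S1 relative to S0 and 8 of 9 in C1 relative to C0. Of the epidermis markers, 7 rose and 1 fell of 13 tested in S1 relative to S0, and 4 rose and none fell of 14 in C1 relative to C0.

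The 9 xylem and secondary wall markers summed to between 909 and 1232 CPM in S1 and 2758 and 3107 CPM in C1, against 1220 and 1503 CPM in S0 and 1271 and 1499 CPM in C0. The 34 markers of dividing cells summed to between 1187 and 1294 CPM in S1 and 4411 and 6509 CPM in C1, against 2924 and 3215 CPM in S0 and 3243 and 4332 CPM in C0. Both summed levels were lower in S1 than in C1 and higher in C1 than in C0. By single markers, 5 of the 9 xylem markers were lower and 3 higher in S1 than in C1, and 31 of the 34 markers of dividing cells were lower and none higher. Because the names favour transcripts that differ between C1 and S1, these counts and sums are a description only. How many such markers differ in the leaf at large was not tested. In C1 relative to C0, 2 of 8 xylem markers tested and 2 of 34 markers of dividing cells rose and none fell. No marker was at 0 in every library, and 2 markers of dividing cells and 1 of the epidermis were at 0 in all S1 libraries. The part of a change in cell types in the results above was not tested.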

How the data were processed

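For 12 bulks of leaves, mRNA-seq libraries prepared with total RNA were sequenced as single reads of 65 bases. According to the labels and the study's methods, Bowtie and TopHat placed the reads on the E. grandis draft genome (maximum intron 5000 bases), Cufflinks built transcripts from the pooled alignments without a gene annotation, and bedtools gave the reads per transcript. Program versions, the genome release and the use of strand are not given in the sources. The deposited values are raw counts, which the authors did not normalize.

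Of 43425 transcripts, 245 identical to another were dropped, and then 1633 that share scaffold and start, before CPM were computed. The members and the lists were chosen with earlier results of these data known. Names came from the study's supplementary tables, by coordinates for 1708 transcripts and by polymorphism position for 674. The copies were partial, and Arabidopsis matches with an E value above 1e-05 were left out. No genome or annotation was used here. The patterns of 2 lists were corrected after the files were read because they caught unrelated words.

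Tests used edgeR 4.0.16 in R 4.3.3 (quasi-likelihood F test, TMM, 2-sided), on transcripts with at least 10 reads over the libraries of a fit (identical transcripts once, those sharing a start kept), with Benjamini-Hochberg adjustment at 0.01. Fits of 2 groups used their 6 libraries, others all 12. In comparisons of groups without a population block, the p-values measure the spread between populations. In the test of populations they measure the spread left after group and population. A standard error was taken back from the F statistic and may understate the error of transcripts with few reads. The procedure was tested on simulated data. Alternatives were DESeq2 1.42.0, edgeR's exact test, median-of-ratios size factors, no low-count filter, a population block, leaving out each library, and other settings of the rule. The pairing check over the seedlings sampled before and at the end gave, after removing group means, correlations across transcripts of 0.189 to 0.295 between S1 and S0 of a population and of 0.217 to 0.238 between C1 and C0. The rule for naming took named members by read share, size of difference, closeness to the threshold and test, and unnamed members by position in at most 10 cases. Giving all 27 by position was decided after their values were seen.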

Additional observations from a re-analysis of the deposited data

Results flagged for a closer look

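The fall over the experiment differed between stressed and watered seedlings in 10 of the 27 transcripts, by the test of the difference (S1 - S0) - (C1 - C0) itself (edgeR's quasi-likelihood test, adjusted p under 0.01, all 12 libraries). The log2 difference was -3.91 for 4a, -4.64 for 4b, -2.51 for 6c, -1.91 for 6a, -2.08 for 1a, -3.12 for 2c, -3.25 for 3a, -2.85 for 11b, -1.37 for 2e and -1.26 for 9d. All 10 fell further in stressed seedlings, and 4a and 4b are 1 locus. Of all 43146 transcripts tested, 6.68% were called in this direction and 4.04% in the other. The rule used the same 12 libraries and set a ceiling on the highest end library. The count in the 27 and the shares of all transcripts are therefore not a like-for-like comparison.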

How the results depend on the processing

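The count of 27 transcripts moved with the rule. It was 132 at a ratio of 2, 13 at a ratio of 4, 16 at a floor of 50 CPM and 44 on TMM-scaled library sizes, which kept the 27. Leaving out 1 library gave 27 to 52 transcripts, and the 52 came without Petford C1 (C1 replicate 3). Keeping transcripts that share a start gave 31, of which 26 were among the 27. For S1 against C1, leaving out 1 library gave 5 to 9 called transcripts, all lower in S1. Of the 11 called, 5 remained without Katherine S1, 6 without Petford C1 and 7 without Petford S1; fewer samples entered those fits. Samples of S1 and C1 share only the population, with correlations of deviations of 0.0521 to 0.142; with population as a replicate block 14 were called, the 11 and 5b, 8b and 9b, of which 1 (8b) was higher in S1. Near 0, 9a changed sign under that block (0.0065), and over the omissions 9a ran between -0.61 and 0.44, 2d between -0.11 and 0.26, 10a between -0.27 and 0.25, and 5a between -0.22 and 0.14. The difference of the falls kept 9 to 11 called transcripts over the omissions, 9 of the 10 in each case at least, and 9d was the call lost. In populations the count of 0 became up to 2 (range 0 to 2) when 1 library was left out. DESeq2 called 10 of the 27 and edgeR's exact test 13 in S1 against C1. Median-of-ratios size factors changed no call there, and none of the 27 was called in S0 against C0 under any alternative. The interval of counts with few reads, such as 7 reads of 11b over the S1 libraries, limits the smallest levels.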
